A study of Mus musculus with 12 samples.

Results

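MHC-II-positive macrophages of mouse skin were compared with MHC-II-negative macrophages of the same tissue, gene by gene, on microarrays. The difference of each gene rests on 6 of the series' 12 arrays, the 3 labelled MHC-II(pos) macrophages and the 3 labelled MHC-II(neg) macrophages. The other 6 arrays hold the same 3-against-3 contrast in melanophages, which are macrophages filled with melanin. They serve as a second cell kind. They also enter the fit that estimates the scatter, so the standard errors, p-values and calls in macrophages depend on all 12 arrays. All 4 groups were sorted by flow cytometry from the skin of untreated C57BL/6 mice, labelled as wild type and specific pathogen free (B6 wild-type SPF), and no age is given in the labels. Both macrophage groups were gated as positive for CD11b and CD64 and negative for CD24, CCR2 and Ly6c, and differ in the labels by MHC-II alone. Their side scatter is labelled high in the titles and low in the phenotype field, so it defines no group here. The labels do not state how many animals gave an array or whether arrays of a group stem from different animals. The p-values therefore reflect the scatter among these samples alone, and that scatter may be technical.

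MHC class II molecules are alpha-beta pairs that show peptides from engulfed material to CD4 T cells. Cd74, the invariant chain, guides them through the cell, H2-DM helps to load the peptide, and Ciita is the switch that turns on their genes. Skin macrophages take up debris, microbes and dying cells. Those of the dermis are known to include cells with and without surface MHC-II, while carrying antigen to the lymph node is mainly the work of dendritic cells.

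Every value is a log2 expression value after RMA, a microarray normalization, so that a step of 1 is a doubling of signal. Of 19938 genes, 68 (0.341%) differed between the macrophage groups at a Benjamini-Hochberg adjusted p under 0.05 with limma, and these are written below as called. 62 genes (0.311%) were higher in MHC-II-positive macrophages and 6 (0.0301%) were lower. Counts of called list members below are to be set beside these shares. Of the rises, 50 were at least 2-fold, 24 at least 4-fold and 10 at least 8-fold, while a single fall reached 2-fold. The median difference over all genes was -0.025, and the median standard error (SE) of a difference was 0.118. In each of the 68 genes the 3 arrays of a group lay apart from the 3 of the other, which among all genes was true of 4.96% in the higher and 7.07% in the lower direction. A small adjusted p makes such a separation likely, so it is no separate evidence.

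The count of falls depended on single arrays and on the scaling. A second quantile normalization gave 71 rises and 19 falls. Leaving out MHC-II-negative macrophages replicate 1 gave 59 rises and 27 falls, and leaving out MHC-II-negative macrophages replicate 2 gave 41 rises and 6 falls. Over all fits that left out 1 of the 12 arrays, the falls ranged from 3 (without MHC-II-negative macrophages replicate 3) to 27. In a fit of the 6 macrophage arrays alone, 25 genes were higher and 2 lower. Replicate 1 of the MHC-II-negative and replicate 3 of the MHC-II-positive macrophages lay farthest from their group mates, with a mean correlation over genes of 0.972 and 0.978 against 0.98 to 0.988 for the other 10 arrays. Without both, 65 genes were higher and 22 lower, and 54 of these were among the 68. Both arrays were chosen on these same data, so leaving them out narrows the scatter by construction.

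**Figure D1:**
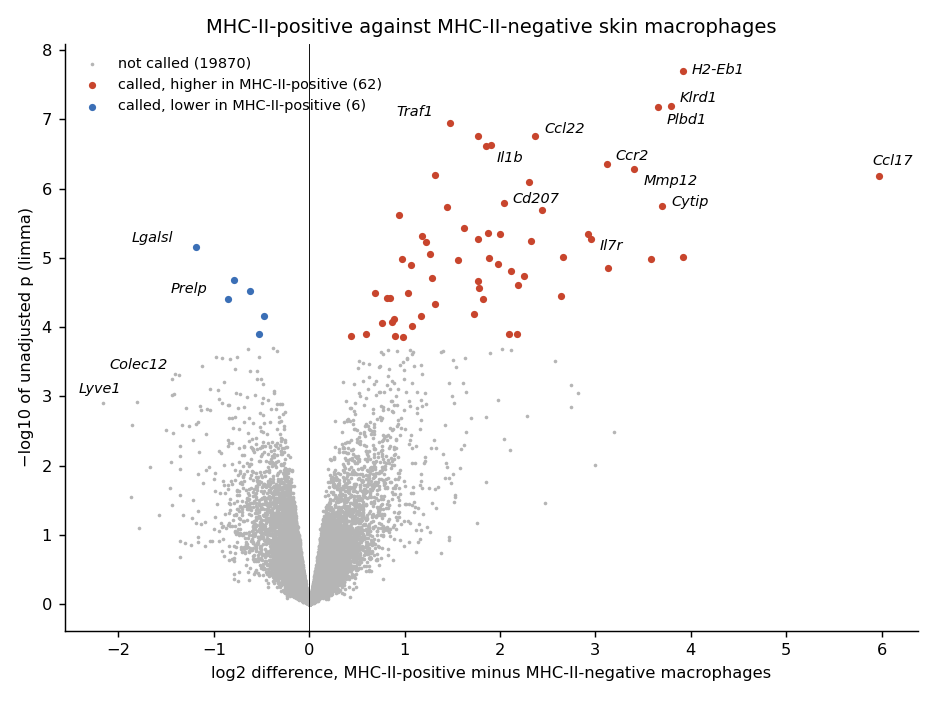
Each point is 1 of 19938 genes, placed by its log2 difference between MHC-II-positive and MHC-II-negative macrophages (x axis) and by −log10 of its unadjusted limma p (y axis). The 62 called rises (red) reach a difference of 5.97 in Ccl17, while the 6 called falls (blue) end at -1.18 in Lgalsl, and Lyve1, at -2.16, was not called.

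The genes of the MHC class II molecules checked the labels, since surface MHC-II was the sorting criterion. The beta-chain gene H2-Eb1 stood at 5.84, 6.86 and 6.52 in the MHC-II-negative arrays and at 10.46, 10.41 and 10.11 in the MHC-II-positive arrays. All 3 positive arrays lay above all 3 negative ones by more than 3 log2 units, a rise of 3.92 ± 0.26 (SE; 15.1-fold, adjusted p 0.000393 with limma). The alpha-chain gene H2-Aa stood at 9.02, 8.36 and 8.32 in the negative and 11.55, 11.16 and 11.75 in the positive arrays. The groups did not overlap, and H2-Aa rose by 2.92 ± 0.34 (adjusted p 0.00412 with limma). H2-Ab1, the beta chain that pairs with it, read 9.60, 8.93 and 9.21 against 11.62, 11.33 and 11.54, again without overlap. Its rise was 2.25 ± 0.30 (adjusted p 0.00912 with limma, 0.0505 without MHC-II-negative macrophages replicate 2). Levels of H2-Aa and H2-Ab1 in the MHC-II-negative arrays were far above the array medians, which ran from 2.97 to 3.08. In sorted pools such as these, fewer cells with a transcript and less of it per cell cannot be told apart.

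Those chains are encoded on chromosome 17, and their known promoter elements, an X box and a Y box, lie just before the start of transcription. The upstream part of both promoters held in the RefSeq tables (GRCm38.p6) is shown because these genes carry the sorting criterion itself. In each, the 150 bases before the gene's start are written 5′ to 3′ on the gene's strand, with the Y box letters CTGATTGG in capitals in both and, in H2-Eb1, the X box in capitals before it.
H2-Aa, chr17:34287824-34287973, minus strand: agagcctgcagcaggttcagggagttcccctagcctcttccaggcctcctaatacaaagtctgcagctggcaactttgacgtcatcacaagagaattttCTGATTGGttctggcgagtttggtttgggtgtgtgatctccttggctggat
H2-Eb1, chr17:34305717-34305866, plus strand: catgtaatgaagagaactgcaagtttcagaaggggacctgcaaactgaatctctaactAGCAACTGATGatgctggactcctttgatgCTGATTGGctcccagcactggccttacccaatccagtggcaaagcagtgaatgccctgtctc
The Y box begins 51 bases before the start of H2-Aa and 62 bases before that of H2-Eb1. Searched on both strands of the 250 bases before a start, the Y box letters stood in 3.83% of 32851 windows and in 3 of the 57 called genes with a window, H2-Aa, H2-Eb1 and Mthfd2. The X box, searched as those letters of H2-Eb1 with any base at the seventh position, stood in 0.0578% of the windows and, among called genes, in H2-Eb1. The shares are of windows and the counts are of genes, so they are not in the same unit. These matches are letters in a window, not measured binding.

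The invariant chain gene Cd74 read 7.78, 8.70 and 9.71 in the MHC-II-negative arrays and 11.79, 11.88 and 11.93 in the MHC-II-positive arrays. The negative arrays were spread over nearly 2 log2 units and the positive ones over a narrow band above them, with a rise of 3.13 ± 0.41 (adjusted p 0.00731 with limma). H2-DMa, a chain of the peptide loader, read 6.95, 6.33 and 6.28 against 8.69, 8.81 and 8.62. It rose by 2.19 ± 0.31 (adjusted p 0.0113 with limma), and its adjusted p was between 0.0555 and 0.0623 when replicate 2 or 3 of the negative group or replicate 2 of the positive group was left out. Ifi30, a reductase that opens disulphide bonds of engulfed proteins, rose by 0.86 ± 0.14 (adjusted p 0.0281 with limma). In all, 6 of the 12 measured genes of MHC class II and peptide loading rose and none fell. Of all genes, 0.311% were called higher and 0.0301% lower. The 6 include H2-Aa, H2-Ab1 and H2-Eb1, which encode the sorting criterion itself, so their rise was selected for by the gate. The median difference of the 12 was 0.67.

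The other 6 members of that list were not called. Ciita, the class II transactivator, read 2.72, 2.61 and 2.71 against 2.88, 2.80 and 2.67, at or under the array medians in both groups. H2-Oa, H2-Ob and H2-Eb2 had means near the medians as well in MHC-II-negative macrophages. The proteases that trim the invariant chain were bright in both groups and overlapped. Ctss read 11.45, 10.98 and 11.31 against 11.22, 11.06 and 11.62, a difference of 0.05 ± 0.16, and Lgmn differed by 0.01 ± 0.23. H2-M2, a non-classical class I gene of the same chromosome, was called as well, at 3.19, 2.98 and 3.15 against 5.52, 4.96 and 5.82. That rise of 2.32 ± 0.28 (adjusted p 0.00429 with limma) is a lower bound, since the negative arrays lay near the array medians; the same holds for 19 of the 68 called genes whose dimmer mean was under 3.58.

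**Figure D2:**
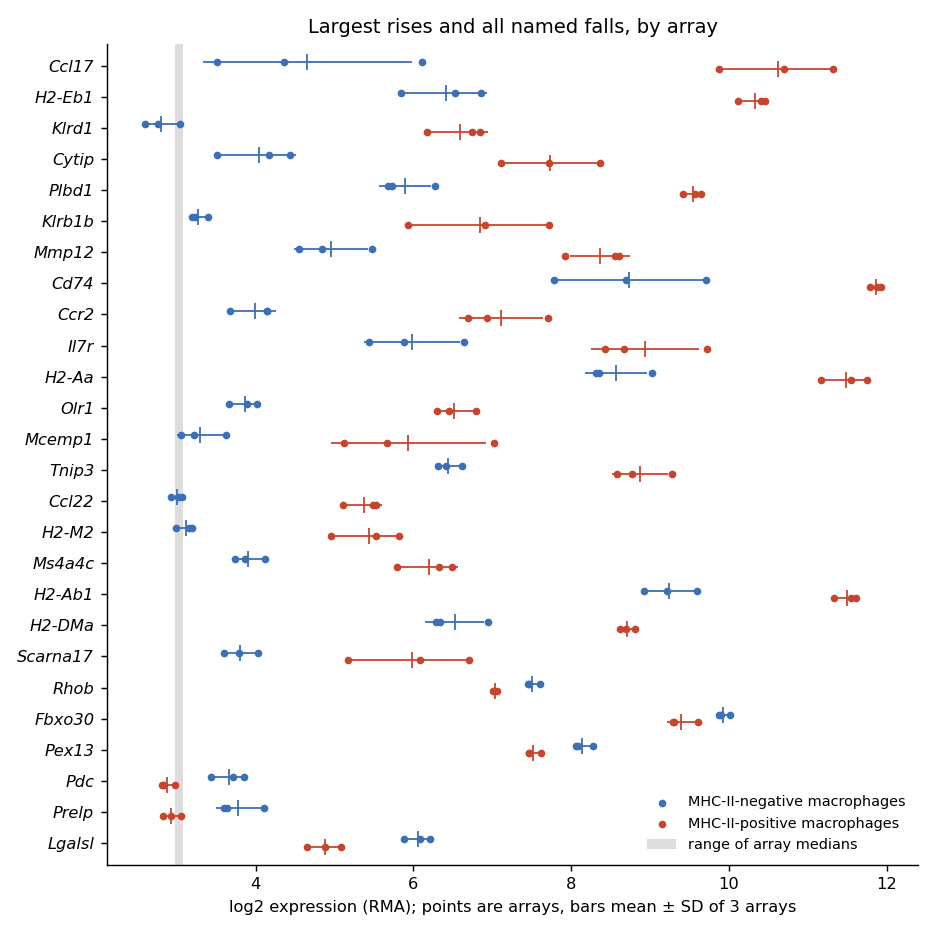
Log2 expression (x axis) of the 20 largest named rises and the 6 falls, with each point 1 array and bars for the mean ± SD of 3 arrays per group; the grey band is the range of array medians, 2.97 to 3.08. Genes were drawn only where the red MHC-II-positive points lie apart from the blue MHC-II-negative points. In Klrd1, Ccl22 and H2-M2 the blue points lie within 0.5 of the grey band.

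The co-stimulatory and checkpoint ligands tell a T cell how to respond to the peptide. Of 13 measured, 1 rose, 12 had a difference above 0, and 5 had an unadjusted p under 0.05 in the higher direction, against 4.12% of all genes. Pdcd1lg2, the PD-1 ligand PD-L2, read 3.59, 3.45 and 3.09 against 5.05, 4.78 and 5.65. It rose by at least 1.78 ± 0.25 (adjusted p 0.012 with limma), without overlap, and missed the threshold without MHC-II-negative macrophages replicate 2 (0.0505) or 3 (0.0623). The median of the 13 was 0.40, against -0.025 over all genes. Cd40 differed by 0.91 ± 0.20 (adjusted p 0.125 with limma), Cd80 by 0.89 ± 0.27 (0.326), Cd274 by 0.62 ± 0.33 (0.697) and Cd86 by 0.05 ± 0.23 (0.978). None of these 4 was called.

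The largest rise of all was in Ccl17, a chemokine that draws cells bearing CCR4, mainly T cells. Ccl17 read 6.10, 4.35 and 3.51 in the MHC-II-negative arrays and 10.70, 9.87 and 11.31 in the MHC-II-positive arrays. The dimmest positive array was more than 3 log2 units above the brightest negative one, MHC-II-negative macrophages replicate 1. The rise was 5.97 ± 0.56, or 62.8-fold (adjusted p 0.0011 with limma, 0.0696 with the 6 macrophage arrays alone). Ccl22, encoded like Ccl17 on chromosome 8, is the other ligand of CCR4. Ccl22 read 3.06, 3.02 and 2.93, all at the array medians, against 5.52, 5.48 and 5.10, a rise of at least 2.37 ± 0.20 (adjusted p 0.000578 with limma).

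Those were 2 of 18 CC chemokine ligands measured, and none of the 18 fell. Of all genes, 0.311% were called higher and 0.0301% lower. The median of the list was -0.01, near that of all genes. Several ligands were bright in both groups and were not called. Ccl2, which attracts monocytes, read 12.23, 12.22 and 12.29 against 11.99, 12.15 and 12.17. Ccl8 and Ccl24 differed by -0.16 ± 0.21 and -0.23 ± 0.29. Ccl5 read 6.33, 5.31 and 5.86 against 6.73, 8.63 and 8.24, and with MHC-II-positive macrophages replicate 1 close to the negative arrays its difference of 2.04 ± 0.56 was not called (adjusted p 0.266 with limma).

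No CXC chemokine ligand of 13 measured was called with limma, while 4 had an unadjusted p under 0.05, which 7.83% of all genes had. The median of the 13 was 0.66. Cxcl9, an interferon-gamma target, read 6.74, 5.12 and 5.41 against 7.70, 10.12 and 9.02, with no overlap but a spread of more than 2 log2 units within the positive arrays (3.19 ± 0.84, adjusted p 0.23). Cxcl16, a scavenger receptor and chemokine in a single protein, differed by 0.74 ± 0.14 (adjusted p 0.0715 with limma) and had the smallest adjusted p of the list.

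Of 14 chemokine receptors, 2 rose, against 0.311% of all genes. Ccr2, the receptor by which monocytes leave the blood vessels for tissue, read 4.14, 4.15 and 3.68 against 7.70, 6.69 and 6.94. The groups lay more than 2 log2 units apart, with a rise of 3.12 ± 0.28 (8.68-fold, adjusted p 0.000968 with limma), although both groups carry the label CCR2(neg). Ccrl2, an atypical receptor that binds chemerin without signalling, rose by 1.32 ± 0.12 (adjusted p 0.0011). Ccr7, which leads dendritic cells to lymph nodes, read 4.89, 4.67 and 3.89 against 6.32, 6.34 and 7.12, and just missed the threshold (2.12 ± 0.38, adjusted p 0.0571). Cxcr3 read lower in all 3 positive arrays, at 4.80, 5.81 and 4.47 against 6.56, 6.83 and 6.21, and was not called (-1.50 ± 0.39, adjusted p 0.219).

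The other transcripts of the gate were measured too. Fcgr1, which codes for CD64, read 6.91, 6.03 and 6.56 against 6.92, 6.96 and 6.99 (0.45 ± 0.22, adjusted p 0.674 with limma). Itgam, which codes for CD11b, differed by 0.53 ± 0.25 (adjusted p 0.66). Cd24a, the transcript of the excluded marker CD24, read 3.92, 3.62 and 4.84 against 5.42, 5.68 and 6.83. The positive arrays were all higher, and the difference of 1.85 ± 0.45 was not called (adjusted p 0.181). The Ly6C transcripts were not analysed here.

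Markers of dendritic cells and Langerhans cells, the antigen-presenting cells of dermis and epidermis, were higher in part. Of 17 dendritic cell genes, 4 rose and none fell, and 2 of these 4 are Ccl17 and Ccl22. A difference above 0 was seen in 15 of the 17, whose median was 0.34 against -0.025 over all genes. An unadjusted p under 0.05 in the higher direction was met by 5, against 4.12% of all genes. Itgax, the integrin chain CD11c, read 3.51, 3.46 and 3.72 against 5.85, 5.20 and 5.35, a rise of at least 1.91 ± 0.16 (adjusted p 0.000602 with limma). Cd207, or langerin, read 2.92, 3.24 and 3.22 against 5.46, 4.61 and 5.43, a rise of at least 2.04 ± 0.21 (adjusted p 0.00226 with limma). Flt3 and Zbtb46, which define classical dendritic cells, were not called. Flt3 read 3.45, 3.11 and 2.99 against 3.94, 3.73 and 3.15, near the array medians in the negative arrays and with a mean of 3.61 in the positive ones (0.42 ± 0.26, adjusted p 0.747 with limma). Zbtb46 read 3.58, 3.12 and 3.22 against 3.47, 3.51 and 3.43, near the medians in both groups. Irf4 differed by -0.01 ± 0.39. The mean level of the 17 dendritic cell genes ran from 3.95 to 4.15 in the negative and from 4.99 to 5.11 in the positive arrays.

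Of 7 Langerhans cell markers, 2 rose, Cd207, which both lists hold, and the tight-junction gene Cldn1. Of the 7, 4 had an unadjusted p under 0.05 in the higher direction, against 4.12% of all genes. A difference above 0 was seen in 5, and the median of the 7 was 0.52. Cldn1 read 2.61, 2.64 and 3.07 against 4.80, 4.80 and 3.91, a rise of at least 1.73 ± 0.27 (adjusted p 0.0235 with limma). It missed the threshold in 4 of the 12 fits without 1 array, MHC-II-negative or MHC-II-positive macrophages replicate 1 or 2, with adjusted p from 0.0794 to 0.0999. Epcam, a defining marker of Langerhans cells, lay under the array medians in all 6 arrays, at 2.32, 2.49 and 2.34 against 2.55, 2.41 and 2.81. The mean level of the 7 markers ran from 3.70 to 3.98 in the negative and from 4.66 to 4.75 in the positive arrays. The part of such cells in any rise reported here was not tested.

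**Figure D3:**
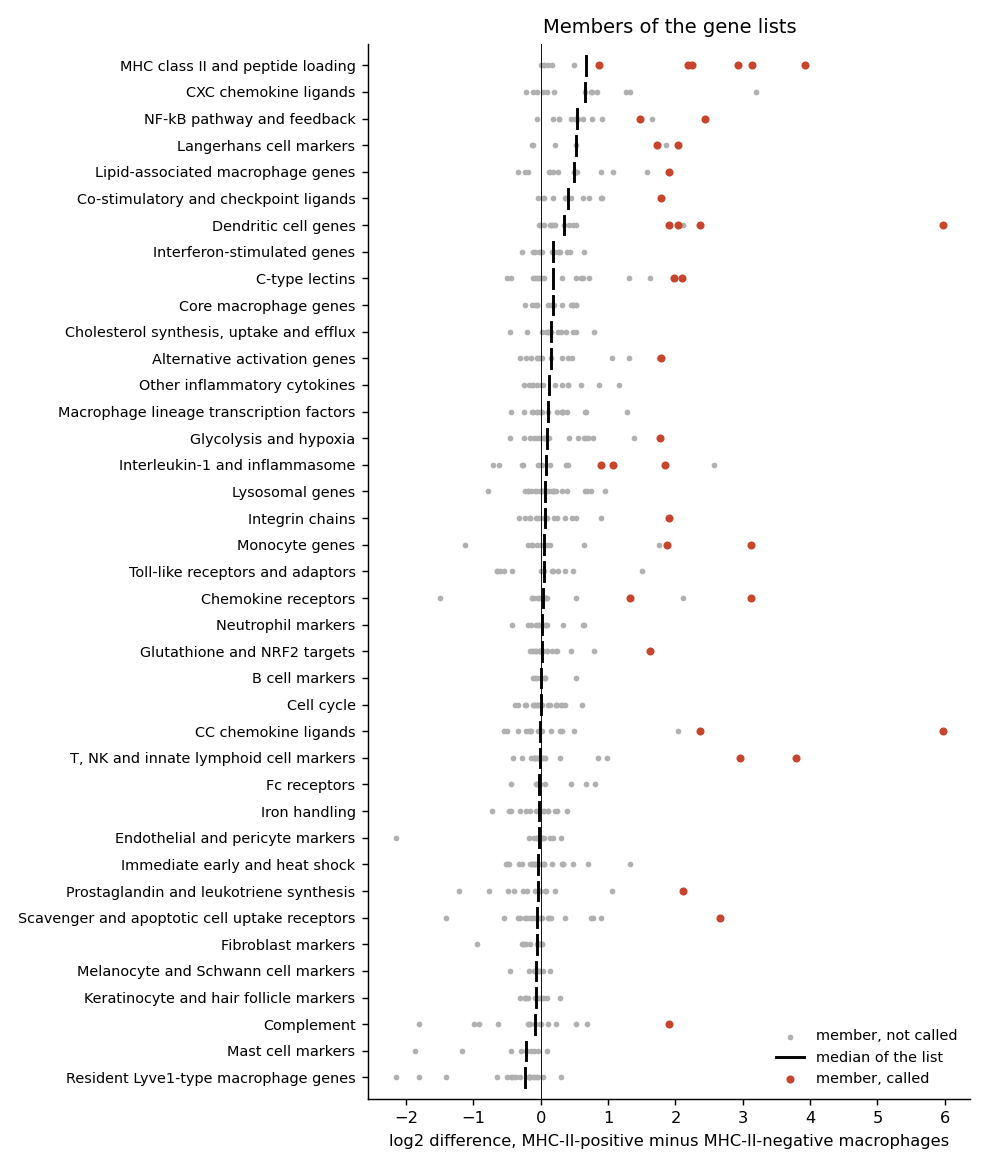
Log2 difference between MHC-II-positive and MHC-II-negative macrophages (x axis) of each member of the gene lists (rows; the sort markers are left out), with called members in red, other members in grey and the median of each list as a black bar. Called members lie right of 0 in every list that has any, and the list medians run from -0.24 for resident Lyve1-type macrophage genes to 0.67 for MHC class II and peptide loading.

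Klrd1 and Klrb1b were among the largest rises. Klrd1 codes for CD94, a lectin-like receptor chain best known from natural killer cells. It read 3.03, 2.76 and 2.60 in the MHC-II-negative arrays and 6.17, 6.74 and 6.85 in the MHC-II-positive arrays. All negative values lay at or under the array medians, so the rise of 3.79 ± 0.28 is a lower bound (adjusted p 0.000444 with limma). Klrb1b, of the NKR-P1 receptor family, read 3.19, 3.23 and 3.39 against 5.93, 6.90 and 7.71, a rise of at least 3.58 ± 0.45 (adjusted p 0.00605). Klra17, a Ly49-type receptor, was the called gene nearest the threshold, at 0.98 ± 0.17 (adjusted p 0.0405 with limma). It read 2.52, 2.34 and 2.40 against 2.93, 3.77 and 3.49, so both group means, 2.42 and 3.40, lay near or under the array medians. The nearest gene beyond the threshold was Snx5, at -0.38 ± 0.07 (adjusted p 0.0571).

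Il7r, the receptor chain for interleukin-7 and TSLP, read 6.64, 5.88 and 5.44 against 8.66, 8.43 and 9.72. It was expressed well above the array medians in both groups and rose by 2.95 ± 0.35 (adjusted p 0.00423 with limma, 0.126 with the 6 macrophage arrays alone). Klrd1 and Il7r were the 2 called genes among 20 measured markers of T cells, natural killer cells and innate lymphoid cells. Of these 20, 15 were near the array medians in both groups. The T cell receptor subunit Cd3e read 3.04, 3.64 and 2.98 against 3.70, 3.36 and 3.45, and the natural killer receptor Ncr1 read 2.58, 2.67 and 2.59 against 2.41, 2.52 and 2.49. The mean level of the 20, which includes Klrd1 and Il7r, ran from 3.10 to 3.21 in the negative and from 3.50 to 3.64 in the positive arrays. Their median difference was -0.01, and 9 of the 20 had a difference above 0.

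Klrb1b, Klrd1, Klra17, Clec7a and Olr1 lie in the lectin-like receptor cluster of chromosome 6. Among the 1126 protein-coding genes of that chromosome in the RefSeq table, Klrb1b is number 931 in order, Clec7a 946, Olr1 947, Klrd1 951 and Klra17 959. Chromosome 6 held 13 of the 68 called genes (19.1%), all of them rises, against 5.51% of all genes measured. Chromosome 8 held 7 (10.3%, against 4.79% of all genes), among them Ccl17 and Ccl22. Chromosome 17 held 5 (7.35%, against 4.69%), all of them H2 genes.

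Receptors for lipids and microbes were among the rises. Olr1, the oxidized LDL receptor LOX-1, read 4.02, 3.89 and 3.66 against 6.80, 6.45 and 6.30, a rise of 2.66 ± 0.34 (adjusted p 0.00605 with limma). It was the called member among 24 scavenger and apoptotic cell uptake receptors, whose median was -0.05. Clec4e, or Mincle, a sensor of mycobacterial and fungal glycolipids, read 7.44, 7.10 and 8.03 against 9.41, 9.33 and 9.77 (1.98 ± 0.26, adjusted p 0.00672). Clec7a, or Dectin-1, the receptor for fungal beta-glucan, rose by 2.09 ± 0.35 (adjusted p 0.039). The call for Clec7a was kept in 2 of the 12 fits without 1 array, with adjusted p up to 0.135 without MHC-II-negative macrophages replicate 3. Clec4e and Clec7a were the 2 called of 18 C-type lectins, of which 8 had an unadjusted p under 0.05 in the higher direction and none in the lower, against 4.12% and 3.72% of all genes. Fc receptors gave 0 calls of 10. Of these 10, 3 had an unadjusted p under 0.05, 2 higher and 1 lower, against 7.83% of all genes.

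Inflammatory genes rose in part. Il1b, the cytokine interleukin-1 beta, was bright in both groups, at 8.98, 8.69 and 9.16 against 10.81, 10.59 and 10.97. The groups were narrow and apart, with a rise of 1.85 ± 0.16 (3.60-fold, adjusted p 0.000602 with limma). Il1rn, the secreted antagonist of the same receptor, rose by 0.89 ± 0.14 (adjusted p 0.0262) and Nlrp3, the inflammasome sensor, by 1.08 ± 0.18 (adjusted p 0.0318). Both calls were sensitive to single arrays, with Il1rn called in 5 and Nlrp3 in 4 of the 12 fits without 1 array and adjusted p up to 0.117 and 0.114. Il1b, Il1rn and Nlrp3 were 3 of 14 genes of the interleukin-1 and inflammasome list, against 0.311% of all genes called higher. The median of that list was 0.08. Il1r2, the decoy receptor for interleukin-1, read 3.81, 4.67 and 4.13 against 6.75, 6.56 and 7.03 and was just not called (2.58 ± 0.49, adjusted p 0.0658). Il1a was lower in each positive array, at 7.76, 8.49 and 8.56 against 8.88, 9.21 and 8.84 (-0.70 ± 0.25, adjusted p 0.48).

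Ptgs2 codes for cyclooxygenase-2, the inducible enzyme at the head of prostaglandin synthesis. It read 6.54, 6.36 and 7.34 against 8.70, 8.55 and 9.32 and rose by 2.11 ± 0.28 (4.32-fold, adjusted p 0.0079 with limma). Without the 2 arrays farthest from their group mates it missed the threshold (1.77, adjusted p 0.0668). It was the called member of 15 measured genes of prostaglandin and leukotriene synthesis. Other enzymes of the list had lower values in the positive arrays and were not called, with Ltc4s at -1.22 ± 0.34 (adjusted p 0.268), Hpgds at -0.78 ± 0.19 (0.18) and Hpgd at -0.49 ± 0.10 (0.102). Alox15, a lipoxygenase, differed by 1.05 ± 0.19 in the other direction (adjusted p 0.0571).

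Of 14 genes of the NF-kB pathway and its feedback, 2 rose, against 0.311% of all genes. A difference above 0 was seen in 13 of the 14, whose median was 0.54 against -0.025 over all genes. Traf1, an adaptor of TNF receptors, read 3.08, 3.29 and 3.04 against 4.63, 4.72 and 4.49, a rise of at least 1.48 ± 0.12 (adjusted p 0.000555 with limma). Tnip3, a binding partner of the brake A20, read 6.61, 6.41 and 6.31 against 8.77, 8.59 and 9.28 (2.44 ± 0.26, adjusted p 0.0024). Malt1, a protease of the same pathway outside the list, rose by 1.76 ± 0.21 (adjusted p 0.00423). Further inflammation lists held no called gene with limma. These were other inflammatory cytokines (0 of 14, 1 at an unadjusted p under 0.05) and Toll-like receptors and adaptors (0 of 14, 6). Of those 6, 2 were higher and 4 lower. Interferon-stimulated genes (0 of 16, 1) and immediate early and heat shock genes (0 of 23, 2) held no call either. Of all genes, 7.83% had an unadjusted p under 0.05. Il10 differed by 0.86 ± 0.28 (adjusted p 0.38).

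In the lists of nutrient uptake and metabolism, the calls were of single genes. Slc2a1, the glucose transporter GLUT1, read 5.59, 5.67 and 5.74 against 7.69, 7.39 and 7.22. It rose by 1.77 ± 0.15 (3.41-fold, adjusted p 0.000578 with limma) and was the called gene of 18 in glycolysis and hypoxia. Of these 18, 8 had an unadjusted p under 0.05, all higher, against 4.12% of all genes in that direction. Vegfa, an angiogenic growth factor of that list, differed by 1.38 ± 0.25 (adjusted p 0.0571). Slc7a11, the cystine transporter that feeds glutathione synthesis, read 2.93, 2.70 and 2.51 against 4.07, 4.72 and 4.21, a rise of at least 1.62 ± 0.18 (adjusted p 0.00383). It was the called gene of 20 glutathione and NRF2 targets, and Hmox1, the haem oxygenase, was bright in all 6 arrays and differed by -0.07 ± 0.12.

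Other enzyme genes were called outside these lists and are given because they were among the 68, having been picked after their values were seen. Got1, the cytosolic aspartate aminotransferase, rose by 1.88 ± 0.24, Gfpt1, the entry enzyme of the hexosamine pathway, by 1.22 ± 0.15, and Odc1, the entry enzyme of polyamine synthesis, by 0.81 ± 0.12. Mthfd2, a mitochondrial folate enzyme, was dim in the negative arrays and rose by at least 0.44 ± 0.07. Lysosomal genes (0 of 26, 2 at an unadjusted p under 0.05) and cholesterol genes (0 of 15, 3) held no call with limma. Neither did iron handling genes (0 of 14, 2) and cell cycle genes (0 of 21, 2). Of all genes, 7.83% had such an unadjusted p.

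Further large rises were in genes of other roles. Mmp12, macrophage elastase, read 5.47, 4.84 and 4.55 against 8.61, 7.92 and 8.55, a rise of 3.41 ± 0.31 (10.6-fold, adjusted p 0.00102 with limma). Plbd1, a phospholipase B-like lysosomal protein, read 6.28, 5.72 and 5.67 against 9.57, 9.65 and 9.41 (3.65 ± 0.27, adjusted p 0.000444). Cytip, a regulator of integrin adhesion in leukocytes, read 4.44, 3.51 and 4.17 against 7.72, 7.12 and 8.37 (3.70 ± 0.39, adjusted p 0.00226). In all 3 genes the groups were more than 2 log2 units apart. Fn1, or fibronectin, read 2.96, 2.88 and 3.18 against 5.44, 4.64 and 4.58, a rise of at least 1.88 ± 0.22 (adjusted p 0.00412). Together with Ccr2 it made 2 called genes of 12 monocyte genes, against 0.311% of all genes called higher. The median of the 12 was 0.05. Their mean level ran from 4.10 to 4.41 in the negative and from 4.55 to 4.89 in the positive arrays. The part of monocytes in these rises was not tested. 

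The remaining named rises were Mcemp1 and Ms4a4c, both myeloid membrane proteins. Ms4a4c read 3.86, 4.12 and 3.73 against 6.49, 5.79 and 6.33 (2.30 ± 0.22, adjusted p 0.00123 with limma). Mcemp1 rose by at least 2.64 ± 0.39 (adjusted p 0.0145) and missed the threshold without MHC-II-negative macrophages replicate 1 (0.0569) or 2 (0.0674). Small nuclear RNAs of Cajal bodies were called as well. Scarna17 rose by 2.18 ± 0.37 (adjusted p 0.039, called in 3 of the 12 fits without 1 array, with adjusted p up to 0.151) and Scarna13 by 1.28 ± 0.17 (adjusted p 0.00942). A gene that carries a clone name, AA467197, read 3.13, 2.91 and 3.02 against 6.66, 5.87 and 8.27 (at least 3.91 ± 0.49, adjusted p 0.00605) and is named because its size placed it among the largest rises.

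Of the called genes outside the named set, Cd52, a small surface glycoprotein of leukocytes, was the brightest rise of more than 2-fold, at 9.96, 9.15 and 9.18 against 11.43, 10.98 and 11.34. It rose by 1.82 ± 0.27 (adjusted p 0.0148 with limma) without overlap. Isy1, a spliceosome protein, rose 3.99-fold, and on the log2 scale Ahr, the receptor for dioxin-like ligands, rose by 1.18 ± 0.18 and Naaa, a lysosomal amidase of lipid mediators, by 1.31 ± 0.20. Adam8, a membrane protease, rose by 1.06 ± 0.14 and Mpeg1, the pore-forming perforin-2 of phagocytes, by 0.90 ± 0.15. Tmsb10, an actin-binding peptide, rose by 0.69 ± 0.10 from an already high level, 10.63, 10.82 and 10.84 against 11.35, 11.40 and 11.62. These were singled out after their values were seen.

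The 6 falls were small. Lgalsl, a galectin-like protein, read 6.21, 6.08 and 5.87 against 4.88, 5.09 and 4.65, a fall of 2.27-fold (-1.18 ± 0.14, adjusted p 0.00496 with limma). Prelp, a proteoglycan of connective tissue, read 3.63, 4.11 and 3.60 against 2.82, 2.92 and 3.05 (-0.85 ± 0.12, adjusted p 0.0148), and Pdc, or phosducin, fell by 0.79 ± 0.11. The positive arrays of both lay at the array medians. Pex13, of the peroxisome import machinery, differed by -0.63 ± 0.09, Fbxo30, a ubiquitin ligase subunit, by -0.53 ± 0.09 and Rhob, a small GTPase, by -0.48 ± 0.08. Lgalsl was the fall that was called in all 12 fits without 1 array. The others were called in 10 (Prelp, Pdc), 9 (Pex13), 5 (Rhob) and 1 (Fbxo30) of them, and the adjusted p without 1 array reached 0.072 for Prelp, 0.0534 for Pdc, 0.0651 for Pex13, 0.105 for Rhob and 0.151 for Fbxo30.

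Genes of resident, Lyve1-type tissue macrophages, which sit along vessels and are known for scavenging, had lower values in MHC-II-positive macrophages without passing the unblocked test over all 12 arrays. Of 20 measured members none was called with limma, and 2 had a difference above 0. An unadjusted p under 0.05 was met by 5, all lower, against 3.72% of all genes in that direction. The median of the 20 was -0.24. Lyve1, a hyaluronan receptor, read 9.57, 10.43 and 10.35 against 6.97, 8.49 and 8.41. The groups did not overlap, and its difference of -2.16 ± 0.49 had an adjusted p of 0.144. Colec12, a scavenger receptor with a lectin domain, read 6.23, 7.39 and 7.18 against 5.35, 5.85 and 5.36 (-1.41 ± 0.31, adjusted p 0.122). Vsig4, a complement receptor, read 3.62, 5.58 and 5.01 against 2.72, 3.06 and 3.02 (-1.80 ± 0.41, adjusted p 0.141). In all 3 genes MHC-II-negative macrophages replicate 1 was the lowest of its group, and without it Vsig4 (-2.36, adjusted p 0.00719) and Colec12 (-1.77, adjusted p 0.0237) were called. That array was singled out on these values, so neither call is a separate test. With sets of consecutive sample codes in the titles as a block, a fit added after the data were seen, Lyve1 (-2.16 ± 0.16, adjusted p 0.00122) and Colec12 (adjusted p 0.0359) were called, although nothing in the labels says that a set shares animals or a day. Mrc1, the mannose receptor CD206, read 10.64, 11.08 and 10.91 against 10.67, 11.03 and 10.76, and Folr2 and Cd163 differed by -0.45 ± 0.21 and -0.31 ± 0.24.

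**Figure D4:**
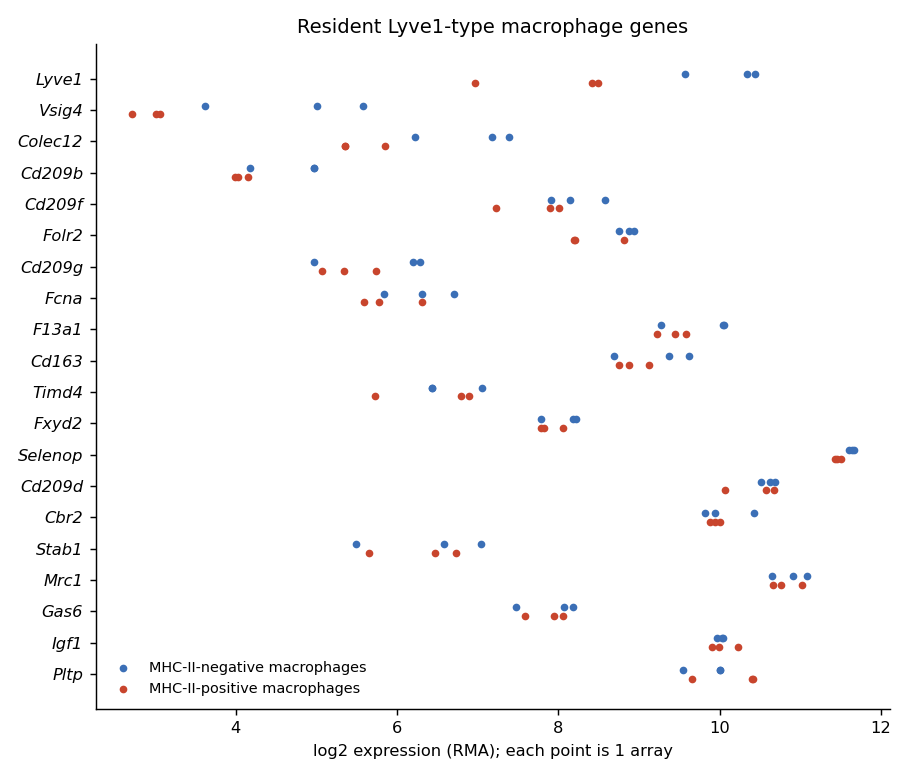
Log2 expression (x axis) of the 20 resident Lyve1-type macrophage genes (rows), with each point 1 array; blue is MHC-II-negative and red MHC-II-positive macrophages. Lyve1, Vsig4 and Colec12 have red points left of all blue points, while Mrc1 and most other members overlap.

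Core macrophage genes were bright on average in both groups. Of 15 core macrophage genes none was called with limma (2 at an unadjusted p under 0.05), and their mean level ran from 8.63 to 8.86 in the negative and from 8.83 to 9.07 in the positive arrays. Adgre1, an adhesion receptor used as a pan-macrophage marker, read 9.14, 9.24 and 9.24 against 9.46, 9.36 and 9.39, Csf1r, the growth factor receptor of the lineage, differed by 0.10 ± 0.32, and Mertk, a receptor for dying cells, by -0.23 ± 0.29. The core list holds Fcgr1 and Itgam, whose proteins CD64 and CD11b were gated on. It is therefore no independent test of the label, and the purity of the groups was not tested. Of 19 macrophage lineage transcription factors none was called (3 at an unadjusted p under 0.05, which 7.83% of all genes had). Alternative activation genes gave 1 call of 15 (Pdcd1lg2), complement genes 1 of 16, lipid-associated macrophage genes 1 of 15 and integrin chains 1 of 18, the last 3 all for Itgax.

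Markers of other cells of skin gave no call. Keratinocyte and hair follicle markers (15 measured), fibroblast markers (13), endothelial and pericyte markers (14), melanocyte and Schwann cell markers (12), B cell markers (9) and neutrophil markers (12) had mean levels per array between 2.71 and 3.69, close to the array medians. Unadjusted p values under 0.05 were met by 1, 0, 1, 1, 0 and 2 of their members, and by 7.83% of all genes. Of 10 mast cell markers, 7 were near the array medians in both groups, and the mean level of the 10 ran from 3.62 to 3.89 in the negative and from 3.15 to 3.45 in the positive arrays. Cpa3, a mast cell protease, read 6.13, 5.18 and 5.32 against 3.66, 3.24 and 4.11 and was not called (-1.87 ± 0.74, adjusted p 0.546 with limma). The part of these cells in the falls was not tested.

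The same contrast in melanophages, measured on 6 other arrays, called 42 genes (0.211%), of which 40 were higher and 2 lower. Of the 68 genes called in macrophages, 27 were called there too. Of the 62 rises, 60 had a melanophage difference above 0 and 53 had melanophage arrays that did not overlap in the higher direction, which 5.12% of all genes had. Of the 6 falls, 4 had a melanophage difference below 0 and 3 had melanophage arrays that did not overlap in the lower direction, as 7.13% of all genes did. Over the 62 rises the median difference was 1.80 in macrophages and 0.99 in melanophages. These genes were picked on their macrophage values, so those 2 medians are set side by side without a comparison.

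Several genes described above were called in both contrasts. H2-Eb1 rose by 3.92 in macrophages and 4.05 ± 0.26 in melanophages, Klrd1 by 3.79 and 3.89 ± 0.28, Ccr2 by 3.12 and 3.35, and Plbd1 by 3.65 and 4.23. Ccl17 rose by 5.97 and 4.54 ± 0.56 (adjusted p 0.00909 with limma in melanophages), and Ptgs2 by 2.11 and 3.26. Other genes were not called in melanophages. Cd207 read 2.76, 2.71 and 2.95 against 3.16, 3.39 and 2.95 there, at the array medians throughout. Itgax differed by 0.62 ± 0.16 in melanophages, Slc2a1 by 0.73 ± 0.15 and Il7r by 0.93 ± 0.35. Il7r was already high in MHC-II-negative melanophages, at 8.07, 7.94 and 7.54.

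Whether a gene's difference was unlike in the 2 cell kinds was tested as an interaction, and no gene of 19938 was called with limma (smallest adjusted p 0.965). An unadjusted p under 0.05 was met by 820 genes, 4.11% of all, so no difference above is called particular to macrophages. The 5 named genes with the smallest unadjusted interaction p were Rab20, a GTPase of phagosomes (5.8e-05), Scarna13 (0.000188), Itgax (0.000192), Cd207 (0.000194) and Prelp (0.000302). Rab20 read 5.53, 5.44 and 5.68 against 6.58, 6.31 and 6.59 in macrophages, a rise of 0.94 ± 0.10, and differed by 0.01 ± 0.10 in melanophages. Without MHC-II-positive macrophages replicate 2 the interaction was called for Cd207 (adjusted p 0.0248), Isy1 (0.0248) and Ift52 (0.0372), and without MHC-II-positive macrophages replicate 1 for Hamp (0.0441).

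**Figure D5:**
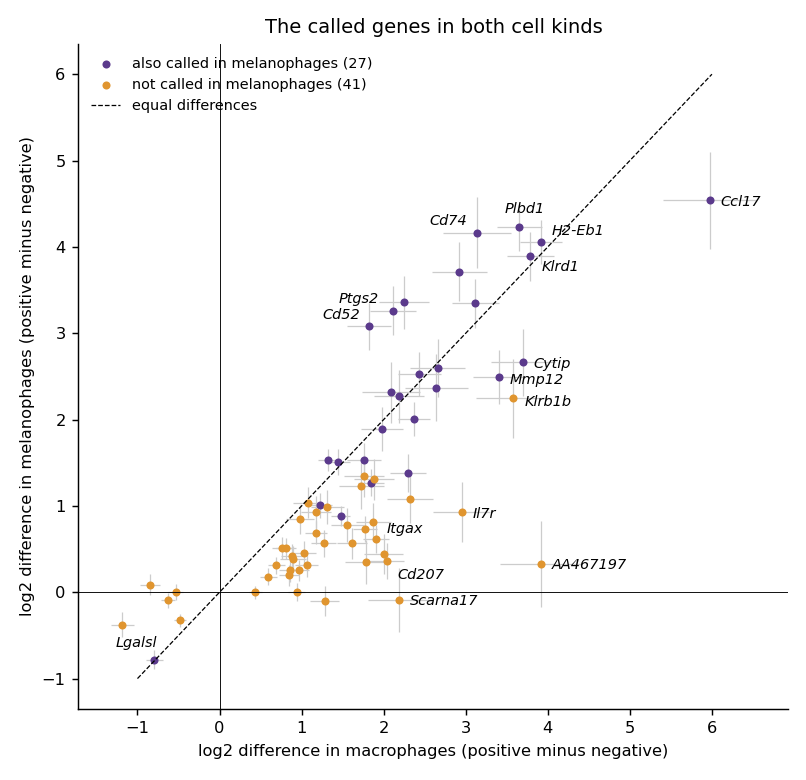
Log2 difference between MHC-II-positive and MHC-II-negative cells in macrophages (x axis) and melanophages (y axis) for the 68 genes called in macrophages, with bars of ± 1 SE and a dashed line of equal differences. The 27 genes also called in melanophages are purple; H2-Eb1 and Klrd1 lie close to the line, and Cd207, Il7r and AA467197 lie near 0 to 1 on the y axis.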

How the data were processed

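RNA of 12 sorted cell samples, amplified from small amounts, was measured on Affymetrix mouse arrays, per the labels' protocols. Per the submitters' processing notes, the authors made the deposited log2 values by RMA with oligo, an R package. The version, the settings and any filter were not given in the sources used here. The table has 35556 probe sets, of which 21789 carry 1 gene symbol, 1621 several and 12146 none. Per gene, the probe set brightest on average over the 12 arrays was kept, which left 19938 genes (999 with more than 1 probe set). Of these, 19856 matched the RefSeq table of GRCm38.p6 by Entrez identifier, and no symbol differed.

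A mean per group was fitted to all 12 arrays with limma 3.58.1 in R 4.3.3 (lmFit and eBayes, no trend, not robust, 8 residual and 2.44 prior degrees of freedom). Tests were two-sided, with Benjamini-Hochberg adjustment over all genes of a comparison and a threshold of 0.05. Errors are SEs of that fit. The number of arrays limits the precision. Data of 19938 genes were simulated with the spread of these arrays and normal noise, independent between genes. The changed genes, 100 of each size, were drawn only from genes brighter than the median gene. Of these, the macrophage comparison called 59% of those changed by 1 and 86% of those changed by 2 on the log2 scale, with 16 false calls. As a share of all calls in that simulated data set, the false calls exceeded the threshold of 0.05. These results do not cover changes in dim genes or noise shared between genes.

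The named genes are the 20 largest rises and up to 15 falls among called genes without overlap (predicted genes and clone names left out), the sort markers, up to 4 called members of each list or else its member with the smallest adjusted p, and the 5 smallest interaction p-values. Genes named outside that rule were picked after their values were seen. Members and all 40 lists (612 of 653 entries matched) were chosen with earlier results of these data known, and no list was tested as a set. Other scalings, filters, probe set rules, fit options and sets of arrays were tried as alternatives, and a block of title code sets was added after the data were seen.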

Additional observations from a re-analysis of the deposited data

How the results depend on the processing

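The 24 alternatives changed the normalization, the filter on dim genes, the probe set rule, the fit options, the arrays used or a block. The macrophage count of 68 fell to 27 (23 of them among the 68) with only the 6 arrays compared, and otherwise ran from 47 to 92 when 1 array was left out, with 101 under array weights, 90 after a second quantile normalization and 81 after cyclic loess. The melanophage count of 42 ran from 19 to 46 when 1 array was left out (19 without replicate 2 of the MHC-II-positive and 24 without replicate 3 of the MHC-II-negative melanophages). The interaction count ran from 0 to 3. No named gene reversed. Of 43 named calls, 17 held in each alternative run on them and 29 in every fit without 1 array. The fit of the 6 arrays has fewer samples to estimate the spread, and there Ccl17 (adjusted p 0.0696), Klrb1b (0.0696), Cd207 (0.0756), Slc7a11 (0.079), Rab20 (0.079), Lgalsl (0.079), Fn1 (0.0924), Cd74 (0.126) and Il7r (0.126) lost a call that they held in every other alternative. The median difference of all genes stayed within 0.04 of 0 under the scalings tried. Depth is not defined for arrays, and for dim genes, near the array medians of 2.97 to 3.08, differences are lower bounds. The labels give the groups no shared replicate numbers, but the codes in the sample titles run in 3 sets of consecutive numbers, each with 1 array of every group. A fit with these sets as a replicate block was added after the data were seen. It called 69 macrophage genes (59 higher, 10 lower, 56 among the 68), 39 melanophage genes and 0 interactions. There Lyve1 (adjusted p 0.00122) and Colec12 (0.0359) gained a call, while Cldn1 (0.0601), Clec7a (0.107), Scarna17 (0.108), Il1rn (0.0858), Rhob (0.0537) and Fbxo30 (0.0546) lost theirs. Deviations from the group means of MHC-II-negative and MHC-II-positive macrophages of a set correlated at -0.05, 0.27 and -0.09. Of all 18 pairs within sets 5 were over 0.1, and 5 of 12 arrays correlated best with an array of their own set. The pairs over 0.1 were not set against pairs between sets, and correlations over all genes cannot settle pairing for single genes. The main fit did not take the sets as pairs.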

Other observations

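Beyond the called genes, a set of falls appeared when the 2 arrays farthest from their group mates, replicate 1 of the MHC-II-negative and replicate 3 of the MHC-II-positive macrophages, were left out. Bmp2, a growth factor of the TGF-beta family, read 4.10, 5.93 and 6.17 in the MHC-II-negative and 3.04, 3.79 and 3.80 in the MHC-II-positive macrophages. It was not called over all arrays (-1.86, adjusted p 0.202 with limma) and was called without both (-2.64, adjusted p 0.0173). Vsig4 (-2.40, adjusted p 0.0199), the imprinted gene Peg10 (-2.12, 0.0199), the aminopeptidase gene Enpep (-1.69, 0.0392), Nupr1 (-1.65, 0.0466), Sema6a (-1.62, 0.0392) and the endothelin receptor gene Ednrb (-1.29, 0.0311) were called in that fit as well. Peg10 read 2.93 in MHC-II-negative macrophages replicate 1 against 4.87 and 4.93 in its group mates. These genes were picked after their values were seen, and the 2 arrays left out were chosen on these same data. Leaving out the arrays farthest from their group mates narrows the scatter by construction. The adjusted p-values of that fit are therefore too small to be read as tests.

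Among genes that missed the threshold over all arrays, Ctsz, a lysosomal protease, read 6.80, 7.33 and 7.54 in the MHC-II-negative and 7.98, 8.39 and 8.16 in the MHC-II-positive macrophages (0.96 ± 0.18, adjusted p 0.0707 with limma). Lgals3, or galectin-3, read 10.21, 9.98 and 9.92 against 10.49, 10.55 and 10.62 (0.52 ± 0.10, adjusted p 0.0658). Timd4, a receptor for dying cells found on long-lived resident macrophages, read 6.43, 6.44 and 7.05 against 5.73, 6.79 and 6.89 in macrophages (-0.17 ± 0.54). In melanophages it read 3.46, 3.98 and 3.57 against 4.96, 7.38 and 6.87 (2.73 ± 0.54, adjusted p 0.127), and the interaction had an unadjusted p of 0.00315 and was not called.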
